A study of Homo sapiens with 16 samples.

Results

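Epithelial and mesenchymal identity was followed through 10 genes: CDH1 and EPCAM on the epithelial side, CDH2, VIM and FN1 on the mesenchymal side, and the transcription factors SNAI1, SNAI2, ZEB1, ZEB2 and TWIST1. They were chosen by name, with earlier results of these data known. All 10 were found, each as a single entry, among the 67938 gene identifiers of both count tables. RNA had been sequenced from the cytoplasm and the nucleus of HepG2 and SNU-449, human lines that the labels call hepatocellular carcinoma cells. At 48 h before harvest either a control siRNA (NC) or siPANAD had been transfected, the latter a mixture of 2 siRNAs against PANAD, the protein of the gene C7orf25. Each of the 8 groups (HepG2 or SNU-449, cytoplasm or nucleus, NC or siPANAD) had 2 libraries, described as biological duplicates. No group was left untransfected, so every value below is from cells that had received an siRNA, and with the siRNAs given as a mixture their effects cannot be told apart.

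Epithelial cells hold to each other through E-cadherin and tight junctions, and they can lose these contacts, become motile and take on fibroblast-like filaments and matrix, a programme called epithelial-mesenchymal transition. Transcription factors of the SNAIL, ZEB and TWIST families drive the programme, and the SNAIL and ZEB proteins repress the E-cadherin gene by binding E-boxes near its start. In liver tumours it is studied because lines with an epithelial, hepatocyte-like profile and lines with a mesenchymal profile differ in invasion. HepG2 and SNU-449 are commonly used as examples of these profiles.

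Libraries held 16238235 to 30321908 counts, with HepG2 cytoplasm NC replicate 2 at the top and the next at 19498081. Levels are given as counts per 1000000 (CPM) after TMM scaling, which lines up the bulk of genes between libraries, so every change is relative to the typical gene. CPM levels were scaled within each line, while tests between lines and levels per kilobase used 1 scaling of all 16 libraries. Zero counts in a library allowed up to 3 counts, or 0.0989 to 0.185 CPM by total counts before TMM scaling, and this limit covers counting error only. The fold limits below put the 3 counts on the TMM scale. A gene was called when its adjusted p in the edgeR quasi-likelihood test (Benjamini-Hochberg over all genes tested) was under 0.05, and every adjusted p below is from that test. Hepatocyte markers matched the HepG2 label: all 15 had more than 3 counts, and together they made up 20110 to 48460 CPM. In SNU-449 the same 15 genes summed to 69.5 to 337.8 CPM. There APOB was at 0 in all 8 libraries and albumin (ALB) at 0 to 6 counts, while the fibrinogen chain FGB reached 4820 counts, above its HepG2 maximum of 2095. FOXA2 had 309 to 1222 counts in SNU-449 and 576 to 1782 in HepG2, so not every marker set the lines apart. Of 15 blood, immune and endothelial markers, 6 in HepG2 and 12 in SNU-449 had at most 3 counts in every library, CD45 (PTPRC) among them. Their sum was 405.8 to 645.3 CPM in the HepG2 cytoplasm, where LYZ carried most of it, 75.1 to 135.5 in the HepG2 nucleus and 16.02 to 31.8 in SNU-449, and their part in the results was not tested. MALAT1, an RNA held in the nucleus, ran from 273.2 to 462.8 CPM in nuclear libraries and only from 2.93 to 7.15 in cytoplasmic ones. NEAT1, the other nuclear RNA examined, ran from 416.3 to 2348 CPM in nuclear libraries and from 6.59 to 109.8 in cytoplasmic ones. In HepG2 NC it was at 79.75 and 109.8 CPM in the cytoplasm and 933.4 and 1114 in the nucleus. With siPANAD nuclear NEAT1 was at 2348 and 2122 CPM in HepG2. In the SNU-449 nucleus it was at 416.3 and 423.9 CPM in NC and 1844 and 1953 with siPANAD. Nuclear MALAT1 there was at 311.4 and 307.8 CPM in NC and 462.8 and 431.7 with siPANAD, so the ranges above also hold differences between treatments. How far the fractions were mixed was not tested. C7orf25 itself had 0 to 7 counts per library, too few for any check of its knockdown. It shares 61.1% of its exonic bases with AC010132.3, a protein-coding gene on the same strand with at most 3 counts per library. How reads in shared bases were counted is not given, so these counts may not show the level of C7orf25.

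Promoter sequence is shown for these genes because the SNAIL and ZEB factors among them bind E-boxes. Whether any of it bears on the changes below was not tested. RefSeq promoter entries (GRCh38.p14) matched 5 of the 10 genes: CDH2, VIM, FN1, ZEB1 and ZEB2. A search on both strands covered the E-box CAGGTG (or CACCTG), the cyclic AMP response element TGACGTCA, the AP-1 site TGANTCA and the CCAAT box (or ATTGG). Among all 35116 promoter windows of 250 bases these motifs stood in 17.5%, 1.65%, 6.57% and 32% respectively. FN1 held a TGACGTCA and a CCAAT, and ZEB1 an E-box at its outermost start and at 1 other of its 7 start sites. CDH2 held a CCAAT box before both of its start sites and an AP-1 match before 1 of them. VIM and ZEB2 held no match in these windows. Below are the stretches upstream of the annotated gene starts of FN1 (chr2:215436173-215436318, minus strand), ZEB1 (chr10:31318167-31318416, plus strand) and VIM (chr10:17227991-17228240, plus strand), 5′ to 3′, with matched motifs in capitals. A match describes the letters and is not evidence of binding.
FN1: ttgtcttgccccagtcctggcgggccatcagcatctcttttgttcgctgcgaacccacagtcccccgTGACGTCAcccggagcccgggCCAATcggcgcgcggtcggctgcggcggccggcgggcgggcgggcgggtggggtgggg
ZEB1: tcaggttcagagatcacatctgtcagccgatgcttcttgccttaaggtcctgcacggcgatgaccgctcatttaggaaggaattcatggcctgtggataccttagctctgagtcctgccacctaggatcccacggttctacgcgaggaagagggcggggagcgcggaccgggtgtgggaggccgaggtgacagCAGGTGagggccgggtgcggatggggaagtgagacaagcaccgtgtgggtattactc
VIM: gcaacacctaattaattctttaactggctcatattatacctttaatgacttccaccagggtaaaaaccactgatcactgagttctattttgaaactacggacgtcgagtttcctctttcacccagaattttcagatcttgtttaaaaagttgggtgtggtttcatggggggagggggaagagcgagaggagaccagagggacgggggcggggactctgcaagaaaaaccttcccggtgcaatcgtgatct

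In NC cells the lines had opposite levels of CDH1, EPCAM, VIM, TWIST1 and ZEB2, but not of every gene. FN1 and SNAI1 were lower in SNU-449 in both fractions, and CDH2 was lower there in the cytoplasm and higher in the nucleus. HepG2 had CDH1, EPCAM and FN1 at high levels and no TWIST1. SNU-449 had VIM, TWIST1 and ZEB2 and almost no CDH1 or EPCAM. ZEB1 was at a similar level in both. Of the 9 genes tested between the lines (SNAI2 did not pass the filter), 8 were called in the cytoplasm and 8 in the nucleus, where 71.2% and 75.5% of all 20459 genes tested were called, so being called was common.

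E-cadherin is the adhesion protein of epithelial adherens junctions, and its gene CDH1 (ENSG00000039068, chromosome 16, 68737225 to 68835548, plus strand, GRCh38) was at 46.4 and 41.7 CPM in the HepG2 cytoplasm NC libraries and 52.9 and 52.3 CPM in the nucleus. SNU-449 NC had 4 and 0 counts in the cytoplasm and 8 and 6 counts in the nucleus, 0.293 and 0, and 0.344 and 0.255 CPM. The lines did not overlap, and the pooled counts gave a CDH1 level 174.6-fold lower in the SNU-449 nucleus (exact 95% interval of the count ratio 103.8 to 319.9). This interval, like those of count ratios below, covers counting error only and not the spread between libraries. EPCAM, a surface adhesion protein of simple epithelia (ENSG00000119888, chromosome 2, 47345158 to 47387601, plus strand), was at 153.2 and 165.9 CPM in the HepG2 cytoplasm and 114.1 and 104.1 in the nucleus. It had 0 counts in both SNU-449 cytoplasm NC libraries, at least 716.6-fold lower (3 counts per library as the limit), and 5 and 2 counts in the nucleus.

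Vimentin is the intermediate filament of mesenchymal cells. Its gene VIM (ENSG00000026025, chromosome 10, 17228259 to 17237593, plus strand) was at 1602 and 1492 CPM in the SNU-449 cytoplasm NC libraries and 1333 and 1246 in the nucleus. HepG2 NC had 1 and 0 counts in the cytoplasm and 0 and 0 in the nucleus, which puts the nuclear level at least 8426-fold higher in SNU-449. Fibronectin, a secreted matrix glycoprotein, is counted as a mesenchymal marker but is also made by hepatocytes for plasma. FN1 (ENSG00000115414, chromosome 2, 215360440 to 215436172, minus strand) had 3745 and 3137 CPM in the HepG2 cytoplasm against 13.2 and 8.93 in the SNU-449 cytoplasm. In the nucleus it had 5768 and 6061 CPM against 49.7 and 55.3. Its level was thus lower in the line with vimentin, by a log2 difference of -8.30 (SE 0.18, edgeR adjusted p = 1.4e-37) in the cytoplasm and -6.81 (SE 0.17, adjusted p = 6.6e-36) in the nucleus. N-cadherin, the adhesion protein gained in the transition and also present on hepatocytes, is encoded by CDH2 (ENSG00000170558, chromosome 18, 27950966 to 28177446, minus strand). It stood at 35.0 and 33.0 CPM in the HepG2 and 27.1 and 21.1 in the SNU-449 cytoplasm, and at 27.8 and 27.7 against 44.9 and 47.2 in the nucleus. So CDH2 was lower in SNU-449 by the cytoplasmic libraries (log2 -0.52, SE 0.13, edgeR adjusted p = 4.8e-04) and higher by the nuclear ones (0.74, SE 0.12, adjusted p = 9.3e-07), with no overlap in either.

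Among the transcription factors, TWIST1, a basic helix-loop-helix factor (ENSG00000122691, chromosome 7, 19020991 to 19117672, minus strand), had 0 counts in all 8 HepG2 libraries. SNU-449 NC had 89.1 and 88.5 CPM in the cytoplasm and 39.7 and 40.3 in the nucleus, at least 399.2-fold and 272.7-fold higher. The zinc finger repressor ZEB2 (ENSG00000169554, chromosome 2, 144364364 to 144524583, minus strand) had 0 to 5 counts in any HepG2 library. SNU-449 NC had 6.01 and 5.46 CPM of it in the cytoplasm and 5.81 and 8.69 in the nucleus. Its pooled count ratio was 109 in the cytoplasm (exact 95% interval 29.7 to 907.6, on 2 HepG2 counts) and 60.6 in the nucleus (25.7 to 187.9). The nuclear HepG2 counts were 0 and 5, so 1 library carried that ratio. The fitted log2 difference of 5.84 became 4.92 without HepG2 nucleus NC replicate 1 and 10.09 without replicate 2. ZEB1, its paralogue (ENSG00000148516, chromosome 10, 31318495 to 31529814, plus strand), was at 10.8 and 12.5 CPM in the HepG2 and 15.4 and 11.1 in the SNU-449 cytoplasm, and the libraries of the lines interleaved. The log2 difference was 0.15 (95% interval -0.17 to 0.47, edgeR adjusted p = 0.406) in the cytoplasm and -0.20 (-0.48 to 0.08, adjusted p = 0.208) in the nucleus. SNAI1, the SNAIL repressor of CDH1 (ENSG00000124216, chromosome 20, 49982999 to 49988886, plus strand), was higher in HepG2, the line with high CDH1. HepG2 NC had 12 and 7.44 CPM of SNAI1 in the cytoplasm against 3.01 and 3.26 in SNU-449, a log2 difference of -1.62 (SE 0.24, edgeR adjusted p = 7.1e-08). In the nucleus 4.87 and 4.14 CPM stood against 1.94 and 2.68 (-0.95, SE 0.25, adjusted p = 6.0e-04). SNAI2, or SLUG (ENSG00000019549, chromosome 8), had 0 to 7 counts in the HepG2 and 0 to 8 in the SNU-449 libraries and was too low to test in either line.

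**Figure D1:**
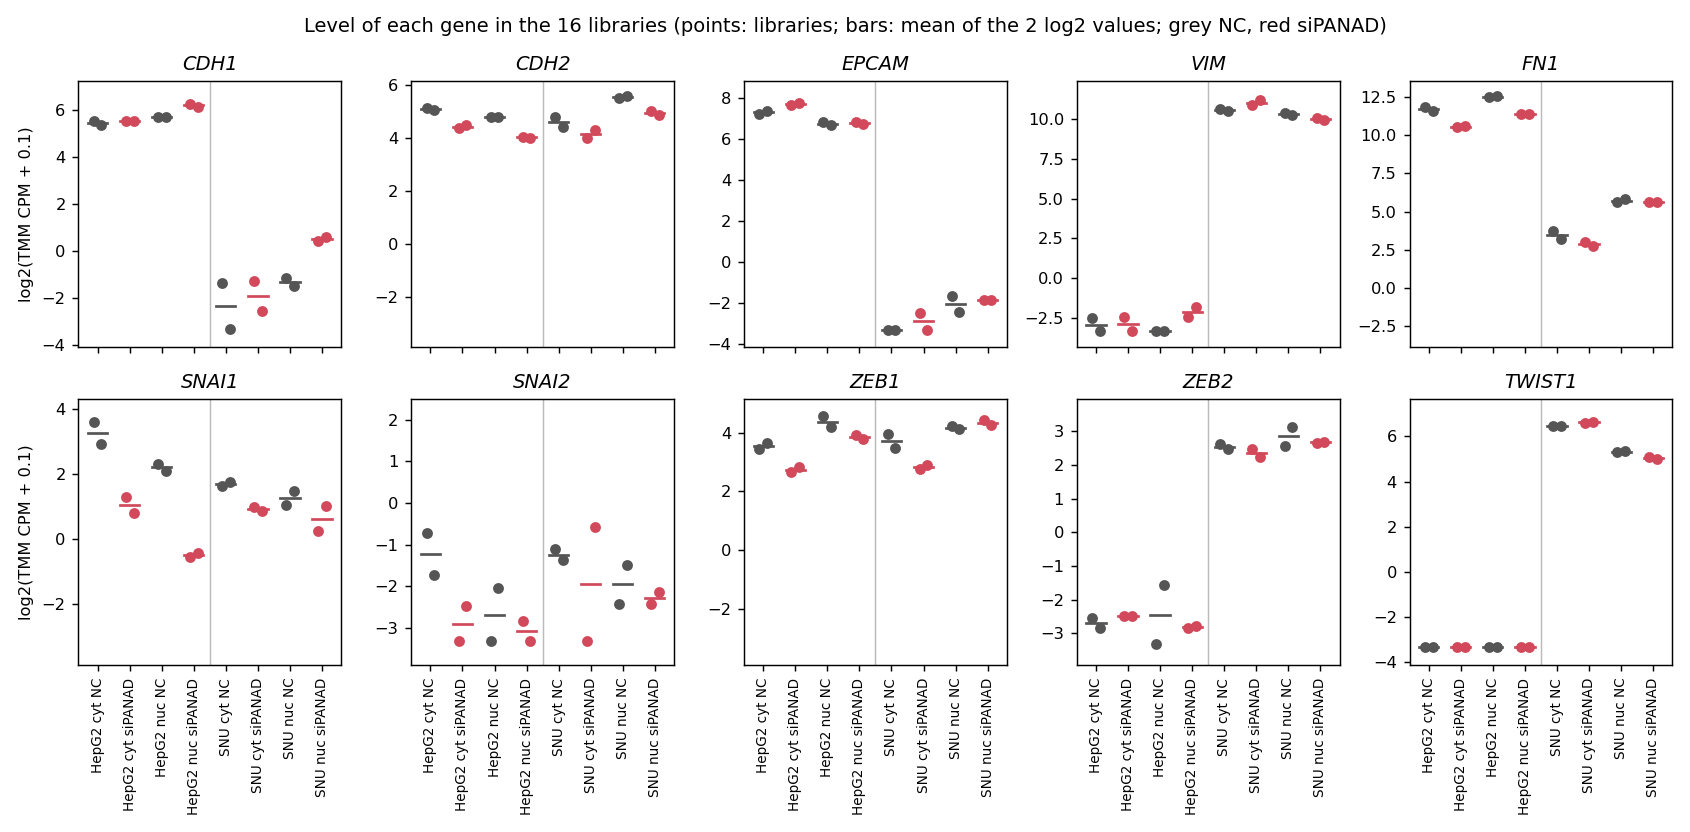
Level of each of the 10 genes on a log2(TMM CPM + 0.1) scale in the 8 groups, HepG2 left and SNU-449 right of the grey line. Points are the 2 libraries, bars the mean of their log2 values, grey NC and red siPANAD. EPCAM and CDH1 fill the HepG2 panels, VIM, TWIST1 and ZEB2 the SNU-449 ones, and SNAI1 in HepG2 drops from 12 and 7.44 to 2.32 and 1.65 CPM in the cytoplasm.

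Per kilobase of exon, and with all 16 libraries scaled together, FN1 led in the HepG2 cytoplasm NC libraries at 184 to 219 CPM per kb, ahead of EPCAM at 61.6 to 67. CDH1 (6.87 to 7.6), CDH2 (6.78 to 7.16) and SNAI1 (4.48 to 7.21) overlapped on the same scale, and ZEB1 followed at 1.26 to 1.47. In the SNU-449 cytoplasm NC libraries VIM led at 294 to 306 CPM per kb, then TWIST1 at 43.1 to 44.3 and CDH2 at 4.33 to 5.39. There SNAI1 (1.75 to 1.97) and ZEB1 (1.31 to 1.75) met at the edge of their ranges, and FN1 (0.525 to 0.75) and ZEB2 (0.222 to 0.236) came below them. The length used joins all annotated exons of a gene, 25058 bases for ZEB2 and 17315 for FN1. The transcripts present may be shorter, so this order depends on the annotation.

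With siPANAD, RNA of SNAI1, FN1, CDH2 and ZEB1 fell in both fractions of HepG2, while the epithelial genes rose slightly or were not called. SNAI1 fell most, to 20.8% of NC in the cytoplasm and 13.4% in the nucleus, and FN1 fell to 44.1% and 45.5%. Of the 6 genes tested, 5 were called in each fraction (1 higher and 4 lower). This stood beside 47.9% of all 17499 genes in the cytoplasm (23.7% higher, 24.2% lower) and 45.6% in the nucleus (22.0% higher, 23.6% lower). The median log2 change of the 6 was -0.75 and -0.66 against -0.00 and -0.03 over all genes. Without scaling factors the median of all genes moved to -0.12 in the cytoplasm and 0.14 in the nucleus, and 3491 genes were higher and 5038 lower in the cytoplasm (4149 and 4241 with them) and 5089 and 2809 in the nucleus (3843 and 4138). Bulk RNA does not tell fewer cells of a type from less RNA per cell. The hepatocyte marker sum also moved. It went from 38010 and 32550 CPM in NC to 48460 and 46850 in the cytoplasm, and from 27270 and 25690 to 20110 and 20540 in the nucleus. The part of that movement in the results was not tested. Leaving out the deep library, HepG2 cytoplasm NC replicate 2, kept the same 5 cytoplasmic calls.

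In the HepG2 cytoplasm SNAI1 was at 12 and 7.44 CPM in NC and at 2.32 and 1.65 with siPANAD (log2 -2.26, SE 0.27, edgeR adjusted p = 1.5e-07). The nucleus had 4.87 and 4.14 CPM in NC and 0.569 and 0.629 with siPANAD, where each library rested on 14 counts (log2 -2.90, SE 0.31, edgeR adjusted p = 3.5e-08). Neither fraction had overlapping groups. FN1 went from 3745 and 3137 to 1502 and 1531 CPM in the cytoplasm (log2 -1.18, SE 0.15, edgeR adjusted p = 3.0e-07). In the nucleus it went from 5768 and 6061 to 2645 and 2742 CPM (log2 -1.13, SE 0.15, edgeR adjusted p = 7.3e-07), so the fall was of like size in both fractions. CDH2 fell from 35.0 and 33.0 to 20.5 and 22.2 CPM in the cytoplasm (log2 -0.67, SE 0.13, edgeR adjusted p = 1.6e-04). Nuclear CDH2 fell from 27.8 and 27.7 to 16.1 and 15.95 CPM (log2 -0.79, SE 0.13, edgeR adjusted p = 2.2e-05). These 3 genes kept their calls without any single library.

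Cytoplasmic ZEB1 fell in HepG2 from 10.8 and 12.5 to 6.16 and 7.06 CPM (log2 -0.83, SE 0.18, edgeR adjusted p = 5.0e-04). The nuclear libraries went from 23.3 and 18.2 to 14.9 and 13.8 CPM (log2 -0.53, SE 0.15, edgeR adjusted p = 0.00668). The groups did not overlap, but the nuclear call was lost without NC replicate 1 (-0.35, edgeR adjusted p = 0.128) or siPANAD replicate 2 (-0.49, adjusted p = 0.0634), and without scaling factors (-0.37, adjusted p = 0.0706). EPCAM rose in the cytoplasm from 153.2 and 165.9 to 206.2 and 222.4 CPM (log2 0.42, SE 0.12, edgeR adjusted p = 0.00651). That call was lost without siPANAD replicate 2 (0.33, edgeR adjusted p = 0.129). In the nucleus EPCAM was at 114.1 and 104.1 CPM in NC and 113.8 and 106.6 with siPANAD, overlapping groups (log2 0.01, 95% interval -0.23 to 0.26). CDH1 rose in the nucleus, from 52.9 and 52.3 to 76.9 and 70.6 CPM (log2 0.49, SE 0.12, edgeR adjusted p = 0.00191). In the cytoplasm CDH1 was at 46.4 and 41.7 CPM in NC and 47.2 and 46.4 with siPANAD (log2 0.09, 95% interval -0.16 to 0.34, edgeR adjusted p = 0.583).

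The other 4 genes stayed near 0 in HepG2. TWIST1 had no count, VIM 0 to 4, ZEB2 0 to 5 and SNAI2 0 to 7 counts per library. VIM had 0 and 0 counts in the nuclear NC libraries and 2 and 4 with siPANAD, too few for a fold. SNAI2 had 7 and 5 counts in the cytoplasmic NC libraries and 0 and 1 with siPANAD, a count ratio of 0.127 (exact 95% interval 0.00298 to 0.86). That interval covers counting error only. Over all genes, replicates of the cytoplasmic NC group differed by more, with a chi-square of 29.87 for each degree of freedom. That value is pooled over all genes and does not measure the spread of SNAI2 itself. With so few counts SNAI2 did not pass the filter, and no change of it is claimed.

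In SNU-449 treated with siPANAD, ZEB1 and FN1 fell in the cytoplasm and were not called in the nucleus, VIM rose in the cytoplasm and fell in the nucleus, and CDH2 fell in both. Of the 8 genes tested, 5 were called in the cytoplasm (1 higher, 4 lower) and 4 in the nucleus (1 higher, 3 lower), beside 39.7% (19.6% higher, 20.1% lower) and 46.0% (22.1% and 23.9%) of all 17895 genes. Their median log2 change was -0.31 and -0.25, against 0.04 and -0.01 over all genes. The hepatocyte sum, small in this line, went from 140.8 and 120.2 to 69.5 and 72.2 CPM in the cytoplasm and from 337.8 and 289.9 to 152.1 and 145.4 in the nucleus. Within this sum FGB had 282 to 4820 counts per SNU-449 library, FGG 138 to 1622 and FOXA2 309 to 1222. ALB had only 0 to 6 and HNF4A 0 to 2, so the sum does not stand for all 15 genes. The part of this sum in the results was not tested.

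ZEB1 gave the largest cytoplasmic fall of the 5 called, from 15.4 and 11.1 to 6.65 and 7.44 CPM (log2 -0.91, SE 0.17, edgeR adjusted p = 3.8e-05), with no overlap. In the nucleus ZEB1 was at 18.4 and 17.5 CPM in NC and 21.6 and 18.9 with siPANAD (log2 0.17, 95% interval -0.08 to 0.43, edgeR adjusted p = 0.293). VIM went from 1602 and 1492 to 1871 and 2325 CPM in the cytoplasm (log2 0.44, SE 0.10, edgeR adjusted p = 4.0e-04). Nuclear VIM went the other way, from 1333 and 1246 to 1096 and 1002 CPM (log2 -0.30, SE 0.10, edgeR adjusted p = 0.0122). The groups did not overlap in either fraction. The cytoplasmic call was lost without siPANAD replicate 2 (0.28, edgeR adjusted p = 0.101), and the nuclear call without NC replicate 1 (-0.25, adjusted p = 0.0582) or siPANAD replicate 2 (-0.24, adjusted p = 0.132).

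CDH2 fell in the SNU-449 nucleus from 44.9 and 47.2 to 32.4 and 28.6 CPM (log2 -0.60, SE 0.12, edgeR adjusted p = 8.3e-05). Its cytoplasmic libraries had 27.1 and 21.1 CPM in NC and 15.9 and 19.7 with siPANAD (log2 -0.43, SE 0.14, edgeR adjusted p = 0.0109). There the groups lay close, and the call was lost without NC replicate 1 (-0.24, edgeR adjusted p = 0.251) or siPANAD replicate 1 (-0.27, adjusted p = 0.201). FN1, low in this line, fell in the cytoplasm from 13.2 and 8.93 to 7.81 and 6.44 CPM (log2 -0.64, SE 0.17, edgeR adjusted p = 0.00332). Without NC replicate 1 the FN1 change was -0.33 (edgeR adjusted p = 0.188), and without siPANAD replicate 2 it was -0.50 (0.0571). In the nucleus FN1 was at 49.7 and 55.3 CPM in NC and 48.7 and 48.6 with siPANAD (log2 -0.11, 95% interval -0.34 to 0.12).

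SNAI1 in SNU-449 fell in the cytoplasm from 3.01 and 3.26 to 1.86 and 1.72 CPM (log2 -0.81, SE 0.30, edgeR adjusted p = 0.0283). The call rested on 24 to 46 counts per library and was lost by DESeq2 (adjusted p = 0.131) and without any 1 of the 4 libraries (edgeR adjusted p between 0.0580 and 0.142). Nuclear SNAI1 was at 1.94 and 2.68 CPM in NC and 1.07 and 1.91 with siPANAD, nearly touching ranges (log2 -0.63, 95% interval -1.15 to -0.11, edgeR adjusted p = 0.0510). TWIST1 was at 89.1 and 88.5 CPM in the cytoplasmic NC libraries and 95.5 and 100.8 with siPANAD (log2 0.14, 95% interval -0.04 to 0.33). In the nucleus it fell from 39.7 and 40.3 to 33.6 and 32.3 CPM (log2 -0.28, SE 0.10, edgeR adjusted p = 0.0176), a call lost without siPANAD replicate 1 (-0.32, adjusted p = 0.0503) or replicate 2 (-0.26, adjusted p = 0.123) and without scaling factors (-0.23, adjusted p = 0.0576). ZEB2 was not called in either fraction. It had 6.01 and 5.46 CPM in the cytoplasm against 5.49 and 4.58 with siPANAD (log2 -0.19, 95% interval -0.61 to 0.23). Nuclear ZEB2 had 5.81 and 8.69 CPM against 6.24 and 6.28, and the groups overlapped (log2 -0.21, 95% interval -0.55 to 0.13).

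CDH1 rose in the SNU-449 nucleus, though from very little. The NC libraries had 8 and 6 counts and the siPANAD libraries 29 and 33, or 0.344 and 0.255 against 1.24 and 1.40 CPM (log2 2.11, SE 0.46, edgeR adjusted p = 2.9e-04), with no overlap. Without any single library the call held. In the cytoplasm 4 and 0 NC counts stood against 4 and 1, where a change was not detectable at this depth. EPCAM stayed at 0 to 5 counts in all SNU-449 libraries. A processed pseudogene, FTLP14, lies within CDH1 on the same strand but shares no exonic base with it in the annotation.

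**Figure D2:**
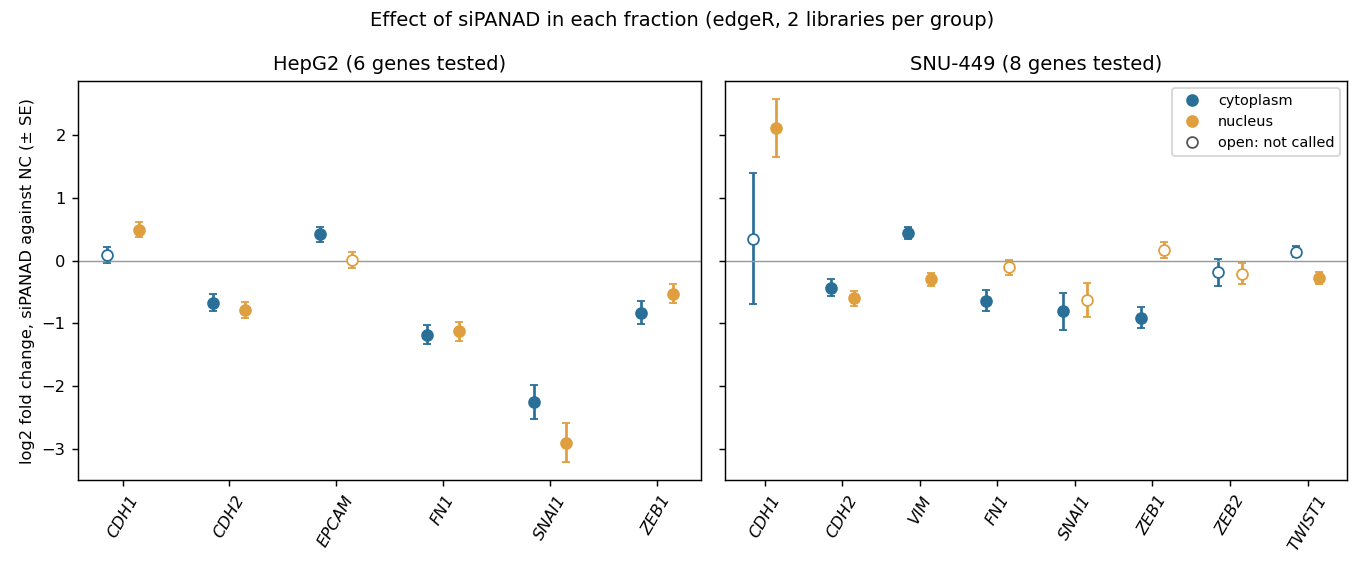
Log2 fold change of siPANAD against NC with its standard error for each gene tested, in the cytoplasm (blue) and the nucleus (orange). Filled points were called by edgeR and open points were not. In HepG2 SNAI1 stands lowest at -2.26 and -2.90, and in SNU-449 ZEB1 is at -0.91 in the cytoplasm and 0.17 in the nucleus.

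Annotated antisense genes overlap several of these loci, and whether strand was used in counting was not given in the sources used here. VIM-AS1 covers 12.4% of the exonic bases of VIM on the opposite strand, and ZEB1-AS1 4.23% of those of ZEB1. In SNU-449 VIM-AS1 rose with siPANAD in the cytoplasm (log2 2.10, SE 0.31, edgeR adjusted p = 7.0e-07) and the nucleus (1.14, SE 0.18, adjusted p = 4.1e-06), though it had at most 197 counts in a library against 21055 or more for VIM. ZEB1-AS1 rose too, by 1.11 (SE 0.30, edgeR adjusted p = 0.00280) and 0.74 (SE 0.19, adjusted p = 0.00204), against the cytoplasmic fall of ZEB1 itself. In HepG2 ZEB1-AS1 was not called (log2 -0.24 and -0.32, edgeR adjusted p = 0.426 and 0.218). The antisense genes within CDH1, CDH2, TWIST1 and ZEB2 had at most 34 counts in any library.

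The difference between the lines was tested directly, by subtracting the log2 change in HepG2 from that in SNU-449. SNAI1 fell more in HepG2 in both fractions. The differences of log2 changes were 1.41 (SE 0.43, edgeR adjusted p = 0.0157) in the cytoplasm and 2.25 (SE 0.44, adjusted p = 1.2e-04) in the nucleus. In the cytoplasm SNAI1 was the only gene called of the 9 tested (18.2% of 20459 genes were). That call was lost by DESeq2 (1.40, adjusted p = 0.0536) and by edgeR without HepG2 NC replicate 1 (1.06, adjusted p = 0.0717), HepG2 siPANAD replicate 2 (1.19, adjusted p = 0.0921), SNU-449 NC replicate 1 (1.33, adjusted p = 0.0534) or SNU-449 siPANAD replicate 1 (1.37, adjusted p = 0.0634). In the nucleus 5 of 9 were called, beside 20.9% of all genes. FN1, called in HepG2 and not in SNU-449, differed by 1.01 (SE 0.19, edgeR adjusted p = 5.2e-05). For CDH1 the nuclear rise was larger in SNU-449 by 1.61 (SE 0.41, edgeR adjusted p = 0.00284). ZEB1 differed by 0.68 (SE 0.21, edgeR adjusted p = 0.0124), a call lost without HepG2 NC replicate 1 (0.50, adjusted p = 0.125), HepG2 siPANAD replicate 2 (0.63, adjusted p = 0.0591), SNU-449 NC replicate 2 (0.63, adjusted p = 0.0534) or SNU-449 siPANAD replicate 1 (0.59, adjusted p = 0.0883). The fifth, VIM, rests on 0 to 4 HepG2 counts and is given no value. For CDH2 no difference was called. Its interval ran from -0.18 to 0.58 in the cytoplasm and -0.17 to 0.53 in the nucleus.

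The fractions were then compared within each line, as the nucleus to cytoplasm ratio. In NC cells FN1 and ZEB1 lay toward the nucleus in both lines. SNAI1 lay toward the cytoplasm in HepG2, and TWIST1 and VIM did so in SNU-449. The SNAI1 and VIM calls toward the cytoplasm were made with scaling factors only. With siPANAD a change of the ratio was called for 3 genes in SNU-449 and for 0 of 6 in HepG2 (edgeR, with 2 at an unadjusted p under 0.05, and DESeq2 also 0). The difference in shift between the lines was not tested. These ratios are relative to the middle of the genes of each fraction. Without scaling factors the median log2 ratio of all genes was 0.66 in HepG2 and 1.06 in SNU-449, against 0.04 and 0.22 with them.

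In HepG2 NC, 5 of 6 genes were called between fractions, beside 77.1% of all genes. FN1 was 0.78 (SE 0.15, edgeR adjusted p = 3.2e-05) and ZEB1 0.82 (SE 0.16, adjusted p = 4.8e-05) higher in the nucleus on the log2 scale. SNAI1 was lower there by -1.08 (SE 0.22, edgeR adjusted p = 1.1e-04), EPCAM by -0.55 (SE 0.13, adjusted p = 3.3e-04) and CDH2 by -0.29 (SE 0.13, adjusted p = 0.0410). Without scaling factors EPCAM turned to 0.07 and CDH2 to 0.33, and SNAI1 was -0.46 and no longer called (edgeR adjusted p = 0.0655). The CDH2 call was also lost without any single library and under RLE scaling, no filter, DESeq2, the replicate block and the fit of 4 libraries (adjusted p between 0.0514 and 0.229). CDH1 had a ratio of 0.26 (95% interval 0.01 to 0.50, edgeR adjusted p = 0.0610).

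In SNU-449 NC, 5 of 8 were called, beside 79.8% of all genes. FN1 had the largest ratio, 2.25 (SE 0.14, edgeR adjusted p = 1.5e-16), from 13.2 and 8.93 CPM in the cytoplasm to 49.7 and 55.3 in the nucleus. CDH2 was higher in the nucleus by 0.94 (SE 0.12, edgeR adjusted p = 2.1e-08) and ZEB1 by 0.44 (SE 0.14, adjusted p = 0.00619), the latter 0.19 and not called without cytoplasm NC replicate 2 (0.292). TWIST1 was lower by -1.15 (SE 0.10, edgeR adjusted p = 2.3e-13). VIM was lower by -0.26 (SE 0.10, edgeR adjusted p = 0.0144), a call lost without cytoplasm NC replicate 1 (-0.27, adjusted p = 0.0506) or nucleus NC replicate 2 (-0.22, adjusted p = 0.0747), and without scaling factors it was 0.59 higher (4.4e-06). Compared between the lines, where 33.3% of all genes were called, FN1 lay further toward the nucleus in SNU-449 by 1.49 (SE 0.20, edgeR adjusted p = 4.4e-08) and CDH2 by 1.25 (SE 0.18, adjusted p = 2.1e-07). EPCAM, the only other gene called, had 0 counts in the SNU-449 cytoplasm and is given no value.

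The siPANAD shift, the nuclear minus the cytoplasmic log2 change, was called for ZEB1, VIM and TWIST1 of 8 genes in SNU-449, beside 20.2% of all genes (3614, or 2392 without nucleus siPANAD replicate 2). ZEB1 moved toward the nucleus by 1.08 (SE 0.21, edgeR adjusted p = 3.1e-04). VIM moved toward the cytoplasm (-0.74, SE 0.14, edgeR adjusted p = 1.5e-04), and TWIST1 did so by a smaller amount (-0.43, SE 0.14, adjusted p = 0.0224). ZEB1 and VIM kept their calls without any single library. TWIST1 lost its call without cytoplasm siPANAD replicate 2 (-0.38, edgeR adjusted p = 0.118) or nucleus siPANAD replicate 2 (-0.40, adjusted p = 0.103). FN1 had a shift of 0.53 (95% interval 0.12 to 0.93, edgeR adjusted p = 0.0725), called without cytoplasm NC replicate 2 (0.76, adjusted p = 0.00860), cytoplasm siPANAD replicate 1 (0.65, adjusted p = 0.0424) or nucleus NC replicate 2 (0.60, adjusted p = 0.0454). In HepG2 the 0 of 6 shifts called stood beside 9.89% of all genes (edgeR). That share is unstable, as 1730 genes called became 841 without nucleus siPANAD replicate 2, 1010 without cytoplasm siPANAD replicate 1, 1057 without nucleus siPANAD replicate 1 and 1077 without cytoplasm siPANAD replicate 2. The nearest were CDH1 at 0.40 (95% interval 0.06 to 0.74, edgeR adjusted p = 0.158) and EPCAM at -0.41 (-0.76 to -0.06, adjusted p = 0.150). Without scaling factors the CDH1 shift was 0.67 and called (edgeR adjusted p = 0.00882). On the CDH1 shift in SNU-449 the counts allow no statement.

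**Figure D3:**
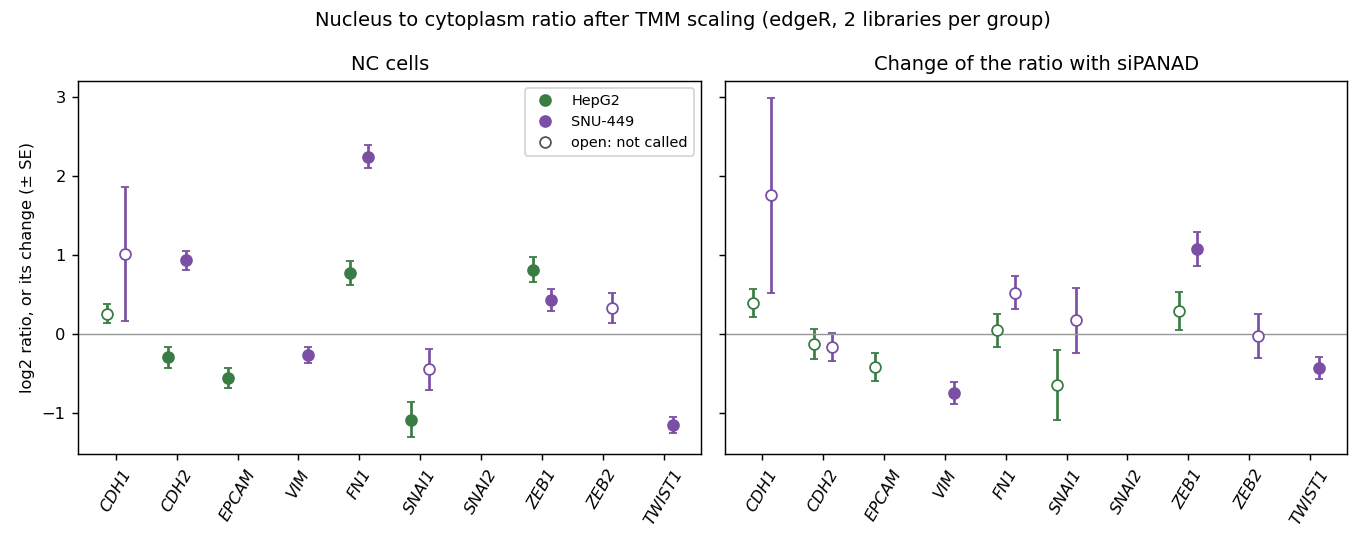
Log2 nucleus to cytoplasm ratio in NC cells (left) and its change with siPANAD (right), with standard errors, for HepG2 (green) and SNU-449 (purple). Filled points were called by edgeR. FN1 lies highest in SNU-449 NC at 2.25, and with siPANAD ZEB1 (1.08) and VIM (-0.74) move apart in SNU-449.

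Around these 10 genes stand lists of others with like roles, none of which holds a member. These lists too were chosen with earlier results of these data known. They were counted with TMM factors only. Over all genes, 23.7% were called higher and 24.2% lower in the HepG2 cytoplasm (median log2 change -0.00), and 22.0% and 23.6% in its nucleus (-0.03). In HepG2 the epithelial lists moved both ways. Of 27 tested junction genes 10 rose and 10 fell in each fraction, with medians of -0.25 in the cytoplasm and 0.02 in the nucleus. TJP3, a tight junction scaffold, rose by 1.65 (SE 0.17, edgeR adjusted p = 1.5e-08) in the cytoplasm and the tight junction protein CGN by 1.35 (SE 0.31, adjusted p = 8.1e-04), while CLDN1, a claudin, fell by 1.67 (SE 0.13, adjusted p = 6.2e-11). Of 14 keratin and surface genes 5 rose and 4 fell in the cytoplasm, where RAB25 rose by 3.24 (SE 0.37, edgeR adjusted p = 6.9e-08) and PRSS8, an epithelial surface protease, fell by 1.77 (SE 0.14, adjusted p = 1.5e-10). Of 12 epithelial regulators 1 rose and 7 fell in the cytoplasm (median -0.59), with KLF5, a factor of epithelial proliferation, lower by 2.48 (SE 0.24, edgeR adjusted p = 5.7e-09) and ELF3 the 1 that rose.

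Mesenchymal effectors in HepG2 counted 4 higher and 9 lower of 27 in the cytoplasm (median -0.09) and 6 and 13 in the nucleus (-0.65). Lower calls were thus 9 of 27 in the cytoplasm, where 24.2% of all genes were lower. The contractile genes ACTA2 (1.11, SE 0.14, edgeR adjusted p = 5.0e-07) and MYL9 (0.95, SE 0.15, adjusted p = 1.6e-05) rose in the cytoplasm. The growth factor receptor PDGFRB fell by 3.37 (SE 0.23, edgeR adjusted p = 9.0e-12). The other transcription factors of the transition counted 1 higher and 8 lower of 9 in both fractions, with medians of -1.06 and -0.91. SOX4 fell by 1.90 (SE 0.18, edgeR adjusted p = 2.7e-09) and TCF3, the E2A factor, by 1.44 (SE 0.15, adjusted p = 1.4e-08) in the cytoplasm, and SNAI3 rose in the nucleus by 1.17 (SE 0.33, adjusted p = 0.00530). Among proteins that bind, modify or degrade SNAIL and ZEB factors, 1 rose and 12 fell of 21 in the cytoplasm (median -0.58). LOXL2, a lysyl oxidase that binds SNAIL, fell by 3.12 (SE 0.21, edgeR adjusted p = 6.0e-12). TGF-beta signalling genes counted 1 higher and 11 lower of 22 in the cytoplasm (median -0.38), with the receptor TGFBR3 lower by 2.38 (SE 0.13, edgeR adjusted p = 2.5e-13).

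Mesenchymal effectors in SNU-449 counted 3 higher and 23 lower of 35 in each fraction, with medians of -0.71 in the cytoplasm and -0.57 in the nucleus, against 0.04 and -0.01 over all genes. Of all genes 19.6% were higher and 20.1% lower in the cytoplasm, and 22.1% and 23.9% in the nucleus. COL1A1, a chain of type I collagen, fell by 3.32 in the cytoplasm (SE 0.12, edgeR adjusted p = 1.9e-21) and by 1.99 in the nucleus (SE 0.10, adjusted p = 1.2e-17). NES, an intermediate filament like vimentin, fell by 2.12 (SE 0.15, edgeR adjusted p = 1.6e-14) in the cytoplasm, where VIM rose. CALD1, an actin-binding protein, rose there by 0.64 (SE 0.14, edgeR adjusted p = 2.4e-04). TGF-beta signalling genes counted 1 higher and 15 lower of 24 in the cytoplasm (median -0.62) and 4 and 14 in the nucleus (-0.32). Lower in the cytoplasm were among others the receptor TGFBR1 (-1.29, SE 0.14, edgeR adjusted p = 7.6e-10) and the feedback inhibitor PMEPA1 (-1.48, SE 0.09, adjusted p = 1.0e-15). Of 14 other transcription factors 1 rose and 6 fell in the cytoplasm (median -0.30), with HMGA2 lower by 1.83 (SE 0.10, edgeR adjusted p = 1.3e-15). Junction genes counted 7 higher and 5 lower of 26 in the cytoplasm (median -0.01). TJP3 (1.24, SE 0.40, edgeR adjusted p = 0.0121) and CGN (1.12, SE 0.30, adjusted p = 0.00245) rose here too, and the catenin JUP, which rose in HepG2 by 1.08 (SE 0.14, adjusted p = 5.5e-07), fell by 1.11 (SE 0.11, adjusted p = 7.7e-11). ESRP2, a splicing factor of epithelial cells, rose by 0.95 (SE 0.19, edgeR adjusted p = 6.9e-05) and GRHL1, a grainyhead factor, fell to a level 2.84-fold lower (0.00111). The epithelial regulators counted 2 higher and 3 lower of 11 in the cytoplasm (median -0.17). Keratin and surface genes counted 2 higher and 5 lower of 12 there (median -0.21), and SNAIL and ZEB partners 5 and 9 of 22 (-0.09). For the shift, 12 mesenchymal effectors of 35 moved toward the nucleus and 0 toward the cytoplasm (median 0.33). Over all 17895 genes 1734 moved toward the nucleus and 1880 toward the cytoplasm (median -0.03). VIM, with its shift toward the cytoplasm, went against the called genes of that list. COL1A1 shifted by 1.33 (SE 0.16, edgeR adjusted p = 1.5e-07).

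**Figure D4:**
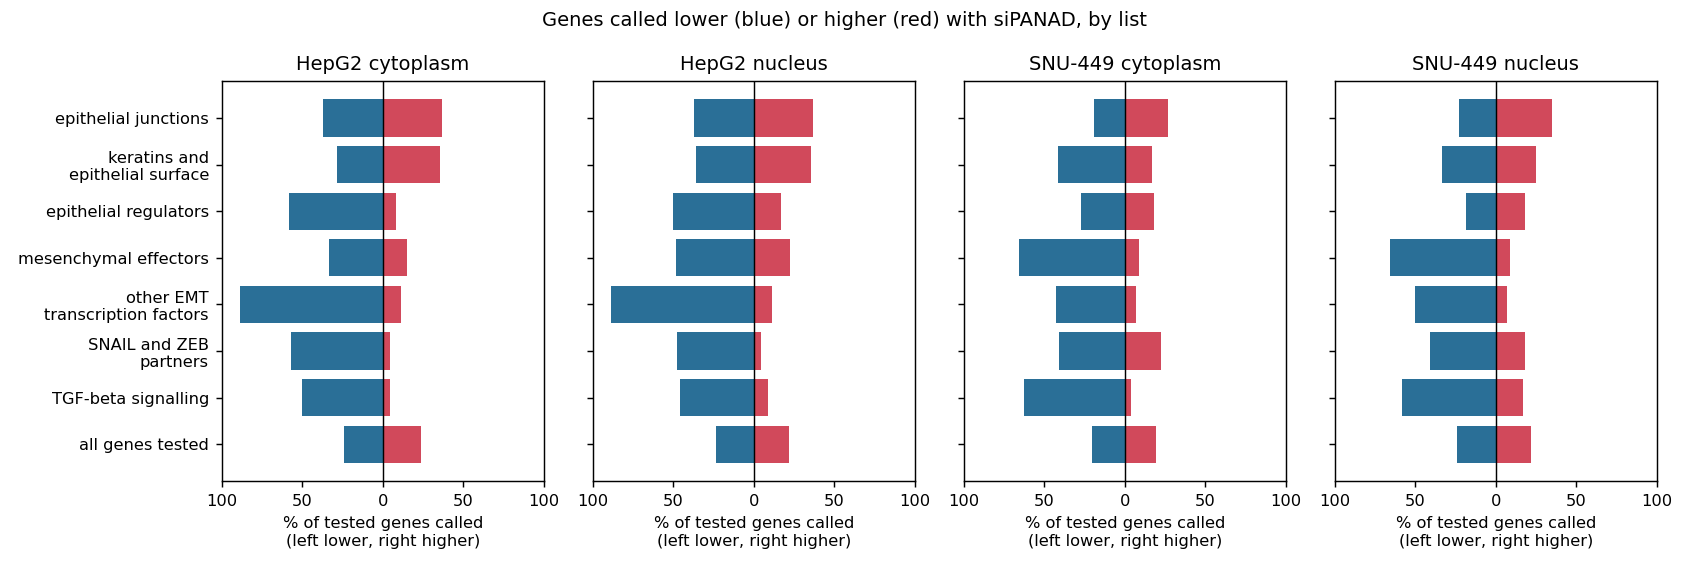
Share of the tested genes of each list called lower (blue, left) or higher (red, right) with siPANAD, with all genes tested at the bottom. In SNU-449 mesenchymal effectors lean left in both fractions (23 lower, 3 higher of 35), and in HepG2 the other transition factors do (8 lower, 1 higher of 9).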

How the data were processed

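Raw read counts per gene were deposited by the authors in 1 table per cell line. Trim Galore 0.6.4, HISAT2 2.2.1 and hg38 are named in the submitters' processing notes. Which program and annotation made the counts, and whether strand was used, is not given in the sources used here. A directional library kit is named in the labels. Groups and replicate numbers came from the titles. Symbols, positions, exon lengths and overlaps came from GENCODE release 29 (GRCh38) for 61398 of 67938 identifiers, and 0.0306% of HepG2 counts and 0.0414% of SNU-449 counts fell on identifiers without a symbol. ANK2, broken over several lines in the tables, was left out.

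In R 4.3.3, edgeR 4.0.16 (filterByExpr with a minimum count of 10, TMM, robust glmQLFit, glmQLFTest, two-sided) was fitted to the 8 libraries of each line with 1 mean per group, and to all 16 for line differences. It kept 17499, 17895 and 20459 genes. The SE is the log2 fold change divided by the root of F, and 95% intervals of fold changes span 1.96 SE to each side. Code was tested on simulated data. Alternatives were RLE factors, no scaling factors (added after seeing the data), no filter, DESeq2 1.42.0, a replicate block, only the 4 libraries compared, and leaving out each library. Likeness between genes was the Pearson r of log2 CPM (prior count 2) over the 8 libraries of a line.

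The 10 genes, the gene lists, the motifs and the tests were chosen with earlier results of these data known. Besides the 10 genes, the text names up to 3 called genes with the largest rise and 3 with the largest fall per list and line in the cytoplasm, the 3 genes most alike to each tested member, overlapping genes and C7orf25. Replicate counts differed by more than counting noise in every group, by a chi-square of 4.094 to 29.87 for each degree of freedom, the highest in HepG2 cytoplasm NC. With 2 libraries per group no exact permutation test can reach the threshold, so tests rest on the spread shared across libraries and genes. Intervals on count ratios are exact at 95% for the pooled counts of a group and do not cover the spread between libraries.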

Additional observations from a re-analysis of the deposited data

Results flagged for a closer look

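The effect of siPANAD differed between the cell lines for 6 results by a direct test (edgeR, SNU-449 effect minus HepG2 effect on the log2 scale). Nuclear VIM, 1 of them, rests on 0 to 4 HepG2 counts and is given no value. The others in the nucleus were SNAI1 (2.25; adjusted p = 1.2e-04), CDH1 (1.61; 0.00284), FN1 (1.01; 5.2e-05) and ZEB1 (0.68; 0.0124). In the cytoplasm it was SNAI1 (1.41; edgeR adjusted p = 0.0157). The SNU-449 nuclear CDH1 value rests on 6 to 33 counts per library, and the HepG2 nuclear SNAI1 value on 14 counts in each siPANAD library.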

How the results depend on the processing

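Counts of called genes held within 1.5 times their reported value under 202 of 215 alternatives. The measure of 1.5 times takes the number of members called and not which they were, so a count could hold while single genes lost their call. The exceptions in number follow, and their cause was not tested. Without scaling factors the HepG2 shift gave 1 call instead of 0 (CDH1) and the cytoplasmic line difference 2 instead of 1. The latter was also 2 with no filter and 0 by DESeq2. Without 1 library each, counts ran from 2 to 5 for the SNU-449 cytoplasm, 0 to 2 for the cytoplasmic line difference and 3 to 5 for the nuclear one. Without scaling factors these log2 values changed sign: in HepG2, CDH1 in the cytoplasm (-0.02), EPCAM (0.07) and CDH2 (0.33) between fractions and the CDH2 shift (0.15); in SNU-449, VIM (0.59) and SNAI1 (0.41) between fractions; and the cytoplasmic line difference of ZEB1 (0.07). Some values that had not been called also changed sign without 1 library. In HepG2 these were the shifts of FN1 (range -0.09 to 0.20) and CDH2 (-0.17 to 0.01) and nuclear EPCAM (-0.06 to 0.07). In SNU-449 they were cytoplasmic CDH1 (-0.93 to 4.93), nuclear ZEB2 (-0.48 to 0.09) and the shifts of CDH1 (-2.80 to 3.05), ZEB2 (-0.28 to 0.29), CDH2 (-0.34 to 0.01) and SNAI1 (-0.30 to 0.53). Between lines they were ZEB1 in the NC cytoplasm (-0.07 to 0.35), the cytoplasmic differences of ZEB1 (-0.31 to 0.11) and CDH1 (-1.06 to 4.77) and the NC ratio difference of CDH1 (-0.17 to 5.34). Over all genes, without scaling factors, for the HepG2 shift 1730 calls (859 higher, 871 lower) became 3057 (2665 and 392), 1889 with no filter (1288 and 601) and 841 to 2346 without 1 library. Between NC fractions the same change gave 9505 higher and 4036 lower in HepG2 (6892 and 6600 with scaling) and 11362 and 3463 in SNU-449 (7789 and 6483). It gave 2966 and 1217 for the cytoplasmic line difference (1876 and 1838), 1827 and 2415 for the nuclear one (2312 and 1967) and 5186 and 1913 for that of the NC ratio (4089 and 2732, or 3195 and 3604 with RLE factors and 2845 and 3322 by DESeq2).

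Deviations of same-numbered libraries from their group means were hardly correlated (from -0.125 to 0.084). Deviations of single libraries hold much noise of their own, so this cannot tell whether replicate numbers pair the samples. With the replicate block 5 members were called in each fraction of HepG2 and of SNU-449, where nuclear SNAI1 was added (adjusted p = 0.0453), and 4 between NC fractions of HepG2, where CDH2 was lost. Where a fit left a group with 1 library, that library was assumed to vary like the other groups. Depth limits EPCAM and CDH1 in SNU-449, VIM, ZEB2 and TWIST1 in HepG2, and SNAI2 in both lines.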

Other observations

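The genes whose log2 CPM followed each member most closely over the 8 libraries of a line were taken by Pearson's r, as a description, since the libraries fall into 4 groups that all genes share. For SNAI1 in HepG2 they were ATOH8 (r = 0.993), RPN2 (0.992) and CITED2 (0.991), and in SNU-449 HOXA10 led at 0.947. CDH2 in HepG2 went with CTSC (0.998), PDIA4 (0.996) and NPTN (0.996), FN1 with NOL6 (0.997), FAT1 (0.995) and ARHGEF2 (0.994), and EPCAM with PIR (0.997), GOLGA5 (0.997) and MLLT3 (0.996). ZEB1 was closest to LEMD3 (0.995) in HepG2 and to NAPEPLD (0.992), TP53INP2 (0.986) and NCOA3 (0.984) in SNU-449. In SNU-449 VIM went with AK6 (0.993) and GFPT1 (0.991), TWIST1 with HINT1, UBA2 (0.999) and UCHL5 (0.999), and ZEB2 with RUNX2 (0.927).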
